A study of Mus musculus with 16 samples.

Results

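Odc1, Hsd11b1 and Cndp2 are 3 genes, of 9669 with a probe of their own on the array, that had been grouped as androgen responsive kidney genes. They were chosen by their measured log2 ratios on these arrays, since each had a probe on which the 5 kidneys differed. Described here are all probes whose platform annotation gave Odc1, Hsd11b1 or Cndp2 as their single gene symbol, 5 of 20205 probes. Odc1 had 1 such probe (18232), Hsd11b1 had 2 (6389 and 16152) and Cndp2 had 2 (784 and 11582). A further probe (9717) is listed with both Odc1 and Gm7993, so it is not counted with these 5 and its values are given beside those of Odc1. Probe 16152 did not pass the filter on missing values, so 4 of the 5 probes were in the fit across all probes.

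The RNA came from the right kidneys of 5 wild-type (WT) male littermates, W1, W2, W3, W4 and W5, all on a mixed background of C57BL/6 and 129Sv and killed at 88 ± 2 days of age. On each of 16 two-colour arrays a littermate, W1 to W4, was hybridised together with W5, which was on every array. A mouse had 4 arrays, 2 in each channel orientation. The question the design puts is how far the kidneys of normal littermates differ. Each mouse is a single animal, and its arrays are repeat hybridisations of its kidney RNA, so the standard errors (SE) and p-values concern this RNA and say nothing of other mice.

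Ornithine decarboxylase, encoded by Odc1, makes putrescine from ornithine and is the rate-limiting enzyme of polyamine synthesis. Its induction by testosterone in the proximal tubule is a classic hormone response of the mouse kidney. Hsd11b1 encodes the type 1 11beta-hydroxysteroid dehydrogenase, which regenerates active glucocorticoid from its inactive 11-keto form, and Cndp2 encodes a cytosolic dipeptidase that splits Cys-Gly, a product of glutathione breakdown. All mice were untreated males, no hormone was given or measured, and androgen response itself was therefore not tested in these data.

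Because the set is named for a hormone response, the 250 bases before the annotated start of Odc1 and of Hsd11b1 are shown, taken from RefSeq's GRCm38.p6 promoter table. No window of Cndp2 was used. Odc1 lies on the plus strand at chr12:17544623-17544872 and Hsd11b1 on the minus strand at chr1:193242361-193242610. Capitals mark GC boxes (GGGCGG) and CCAAT boxes (CCAAT), each searched on both strands.
Odc1: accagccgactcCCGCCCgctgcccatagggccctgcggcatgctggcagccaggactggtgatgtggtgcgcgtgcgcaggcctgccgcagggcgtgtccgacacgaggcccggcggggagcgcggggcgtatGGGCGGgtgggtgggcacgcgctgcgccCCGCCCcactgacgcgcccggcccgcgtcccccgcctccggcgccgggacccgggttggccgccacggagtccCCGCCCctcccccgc
Hsd11b1: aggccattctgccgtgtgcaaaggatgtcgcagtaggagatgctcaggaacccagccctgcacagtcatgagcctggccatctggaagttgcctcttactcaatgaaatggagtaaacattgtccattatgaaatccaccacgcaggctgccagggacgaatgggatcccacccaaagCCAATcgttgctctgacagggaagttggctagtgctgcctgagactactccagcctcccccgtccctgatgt
The window of Odc1 held 4 GC boxes, beginning 238, 116, 88 and 15 bases before the start, and that of Hsd11b1 held none. Of 32851 promoter windows of this length, 32.7% held a GC box. Hsd11b1 had a CCAAT box 72 bases before the start, a motif found in 33.8% of windows. The hexamer AGAACA, found within DNA elements bound by the androgen and glucocorticoid receptors, was in neither window and in 16.1% of all windows. The windows differ in base composition, with 80% G and C in Odc1 and 54.4% in Hsd11b1, against 53.2% over all windows.

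Each value is the log2 ratio between both channels of an array. The sign was turned on arrays with W5 in channel 1, so that a positive value lies on the same side of W5 in every mouse. Which channel is the numerator is not given in the sources used here, so a positive value cannot be read as higher or lower than W5. The text therefore speaks of a plus side and a minus side of W5, with W5 at 0. A fitted value is the mouse's log2 ratio after a probe-specific term for channel orientation was taken out. The range of a probe is its highest minus its lowest value over the 5 kidneys. The 3 genes had been picked by probes 18232, 6389 and 784, which passed the test of whether any of the 5 kidneys differ. That test called 629 of 15715 probes (4.00%) at an adjusted p under 0.05. The kidney differences of all 5 member probes are therefore described here with no test.

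Odc1 set W3 apart on the plus side and W2 with W4 on the minus side. On probe 18232, W3 had log2 ratios of 0.86, 0.35, 0.66 and 0.59 on its 4 arrays, and W1 had 0.30, 0.27, 0.53 and -0.27. W2 had -0.29, -0.45, 0.26 and -0.66, and W4 had 0.16, -0.35, -0.11 and -0.41. Every array of W3 lay above every array of W4, and W3 overlapped with W1 only, since array 3 of W1 reached 0.53 and array 2 of W3 was at 0.35. The arrays of W2 and W4 overlapped over most of their span, and each had a single array on the plus side.

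Fitted values were 0.62 ± 0.10 in W3, 0.21 ± 0.10 in W1, -0.17 ± 0.10 in W4 and -0.28 ± 0.10 in W2 (SE, n = 4 arrays each). The order of the kidneys was thus W3, W1, W5, W4 and W2, with a range of 0.90, which is 1.87-fold. W3 and W1 were 0.41 ± 0.14 apart and W1 and W5 0.21 ± 0.10. Without array 2 of W1, the distance of W1 from W5 was 0.11 ± 0.11. W5 and W4 at 0.17 ± 0.10, and W4 and W2 at 0.11 ± 0.14, differed by less than 2 times the SE of their difference. The mean of the 4 mice was 0.09 with a standard deviation (SD) of 0.41, so the littermates lay on both sides of W5 and not at a common distance from it. Without W3 the range was 0.49.

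**Figure D1:**
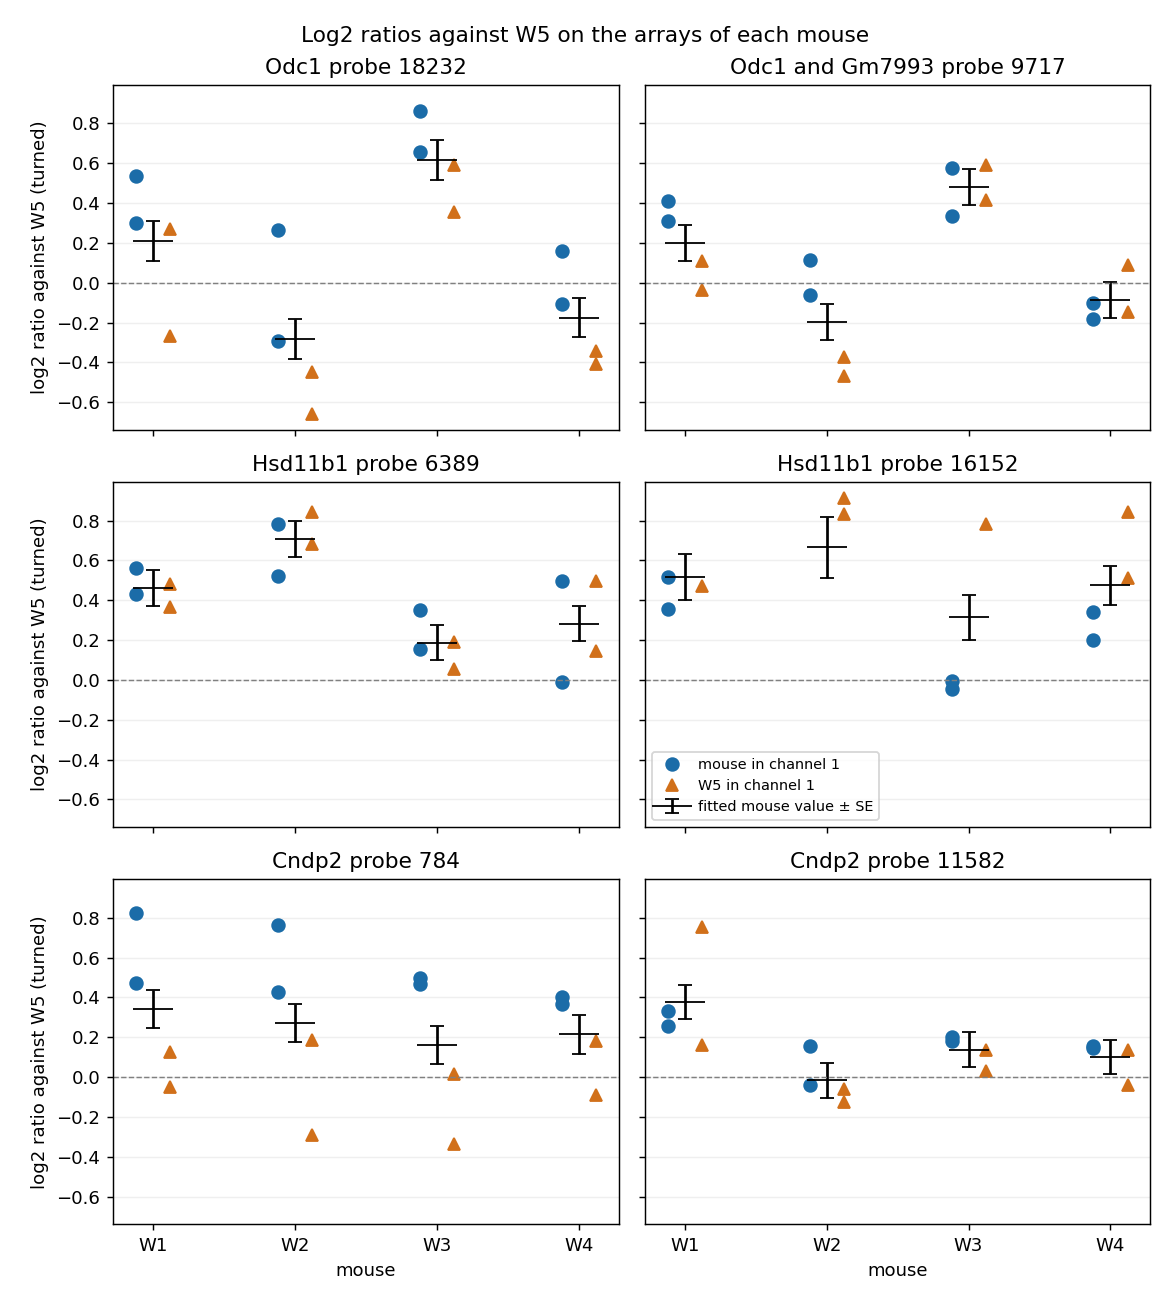
Each panel plots 1 probe, with the mouse on the x axis and the log2 ratio against W5, turned to a common side, on the y axis. Circles are arrays with the mouse in channel 1, triangles arrays with W5 in channel 1, and black bars the fitted value ± SE. Odc1 probe 18232 lies at 0.35 or more on all arrays of W3, and Cndp2 probe 784 lies at 0.37 or more on every circle and at 0.19 or less on every triangle.

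The probe listed with Odc1 and Gm7993 gave the same order of kidneys with a narrower range. Its arrays lay at 0.58, 0.42, 0.34 and 0.59 in W3, all on the plus side. W1 was at 0.31, -0.03, 0.41 and 0.11 on its arrays, W2 at -0.06, -0.37, 0.11 and -0.47, and W4 at -0.10, -0.15, -0.18 and 0.09. Fitted values were 0.48 ± 0.09 in W3, 0.20 ± 0.09 in W1, -0.09 ± 0.09 in W4 and -0.20 ± 0.09 in W2 (SE, n = 4), a range of 0.68. With the orientation term removed, the 2 probes had the same sign on 14 of 16 arrays, and their Pearson r over the 16 arrays was 0.86. Within mice, after each mouse's mean was subtracted, r was 0.37. These points share the same hybridisations and the same W5 RNA. Its values cannot be assigned to Odc1 or Gm7993 alone.

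Hsd11b1 lay on the plus side of W5 in all 4 mice, and W2 was the farthest. On probe 6389, W2 had 0.78, 0.84, 0.52 and 0.68, and W1 had 0.43, 0.37, 0.56 and 0.48. W4 had -0.01, 0.15, 0.50 and 0.50, and W3 had 0.15, 0.05, 0.35 and 0.19. The only array of the 16 below 0 was array 1 of W4. The arrays of W2 did not overlap with those of W3, while those of W4 overlapped with both W1 and W3.

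Fitted values were 0.71 ± 0.09 in W2, 0.46 ± 0.09 in W1, 0.28 ± 0.09 in W4 and 0.19 ± 0.09 in W3 (SE, n = 4). W5 came last, a range of 0.71 or 1.63-fold. W2 exceeded W1 by 0.25 ± 0.13, W1 exceeded W4 by 0.18 ± 0.13 and W4 exceeded W3 by 0.10 ± 0.13 on this side. Each of these 3 neighbouring differences was under 2 times its SE, whereas W3 and W5 at 0.19 ± 0.09 were not. The mean over the 4 mice was 0.41 with an SD of 0.23. Without W2 the range was 0.46, the value of W1.

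The second Hsd11b1 probe, 16152, had values on 12 of 16 arrays. It lay at 0.83 and 0.91 on the 2 arrays of W2 that had a value, both with W5 in channel 1. W1 had 0.52, 0.36 and 0.47, W3 had -0.05, -0.00 and 0.78, and W4 had 0.20, 0.51, 0.34 and 0.84. W3 thus spread over almost the whole span of the other mice. Fitted values were 0.67 ± 0.15 in W2, 0.52 ± 0.12 in W1, 0.47 ± 0.10 in W4 and 0.31 ± 0.12 in W3 (SE, n = 2, 3, 4 and 3 arrays), the same order as for probe 6389. The plain mean of W2 was 0.87, above its fitted value, because both of its arrays were of 1 orientation and this probe's orientation term of -0.21 ± 0.06 was taken out. With that term removed, both Hsd11b1 probes had the same sign on 11 of 12 arrays, with r = 0.55 over these arrays and 0.26 within mice.

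Cndp2 showed the smallest range of the 3 genes, and its probes differed on W2. On probe 784, W1 had 0.47, -0.05, 0.82 and 0.13, and W2 had 0.43, 0.19, 0.76 and -0.29. W4 had 0.40, 0.18, 0.37 and -0.09, and W3 had 0.50, 0.02, 0.47 and -0.34. The spans of all 4 mice shared the stretch from -0.05 to 0.40. Fitted values were 0.34 in W1, 0.27 in W2, 0.22 in W4 and 0.16 in W3, each ± 0.10 (SE, n = 4), so W5 lay at the end of a range of 0.34 or 1.27-fold. None of the 4 neighbouring differences reached 2 times its SE. That range exceeded or equalled the range of 76.1% of tested probes, against 98.4% for Hsd11b1 probe 6389 and 99.5% for Odc1 probe 18232.

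On probe 11582 of Cndp2, W1 was the outermost kidney on the plus side and W2 lay next to W5. W1 had 0.33, 0.75, 0.26 and 0.16, and W2 had -0.04, -0.06, 0.16 and -0.12. W3 had 0.20, 0.14, 0.18 and 0.03, and W4 had 0.15, 0.13, 0.16 and -0.04. Apart from W1, the fitted values were within 0.14 of W5, at 0.14 in W3, 0.10 in W4 and -0.02 in W2, while W1 was at 0.38 (each ± 0.09, SE, n = 4). The array of W1 at 0.16 lay within the span of W3, W1 exceeded W3 by 0.24 ± 0.12, and none of the 4 neighbouring differences reached 2 times its SE. The range was 0.39, and it was 0.16 without W1. Without array 2 of W1, which was at 0.75, W1 was at 0.23 ± 0.08 and the range was 0.25. Over the 16 arrays with the orientation term removed, the Cndp2 probes had r = 0.18, and 0.05 within mice. They had the same sign on 12 of 16 arrays. W2 is where they part, with 0.27 on probe 784 and -0.02 on probe 11582.

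**Figure D2:**
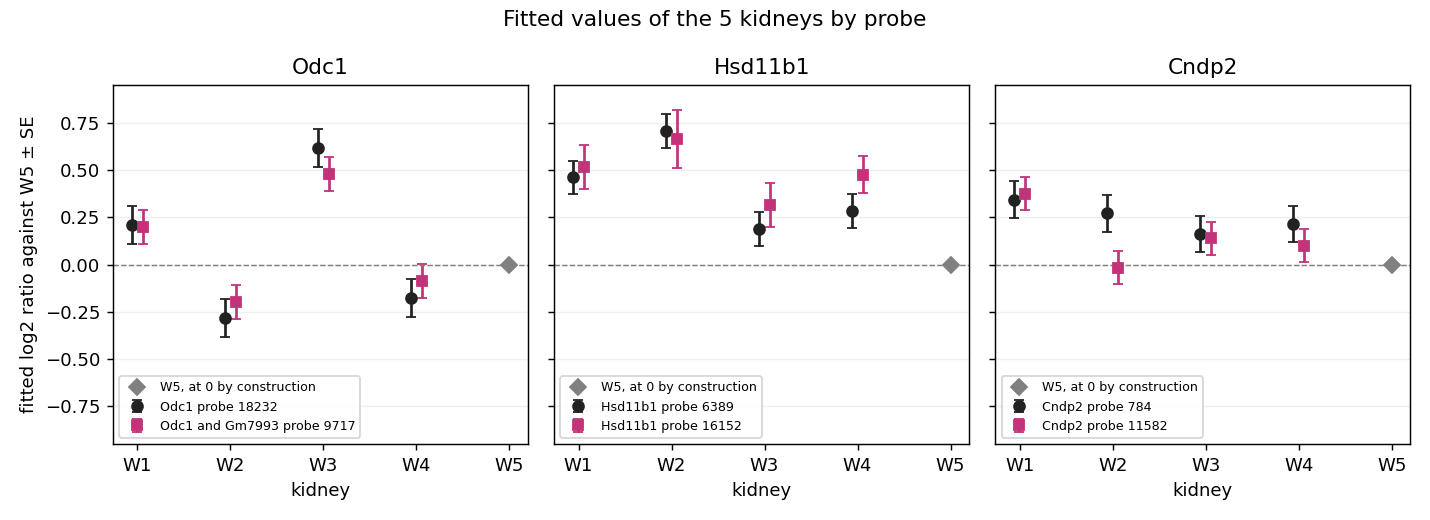
The fitted log2 ratio against W5 (y axis) of each kidney (x axis) is drawn for the probes of Odc1, Hsd11b1 and Cndp2, with bars for the SE and W5 at 0. Odc1 spans both sides of W5, from 0.62 in W3 to -0.28 in W2 on probe 18232. Hsd11b1 is on the plus side in all mice on both probes, and the Cndp2 probes part in W2.

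The 3 genes did not share an order of kidneys. Hsd11b1 probe 6389 and Cndp2 probe 784 differed only in the places of W1 and W2, which were under 2 times the SE apart on both. On probes 18232 and 6389, W2 was the outermost mouse on the plus side for Hsd11b1 and the outermost on the minus side for Odc1, and W3 was the outermost on the plus side for Odc1 and nearest to W5 for Hsd11b1. Over the 5 kidneys, with W5 at 0, Pearson r between Odc1 probe 18232 and Hsd11b1 probe 6389 was -0.41 (n = 5 kidneys that share W5). The values for Cndp2 differed with its probe. Probe 784 had r = 0.83 with Hsd11b1 and -0.09 with Odc1, whereas probe 11582 had r = 0.12 with Hsd11b1 and 0.48 with Odc1.

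A channel orientation term that is not part of the kidney contrast could be tested. It is the offset of a probe's log2 ratio that stays the same whichever kidney is in which channel, and the test, limma's moderated test, called 1959 of 15715 probes (12.5%). Cndp2 probe 784 had an offset of 0.28 ± 0.05 (adjusted p = 0.00379), larger in size than that of 98.9% of tested probes. All 8 of its arrays with the mouse in channel 1 lay between 0.37 and 0.82, and all 8 with W5 in channel 1 lay between -0.34 and 0.19, with no overlap. In the fits of 1 orientation at a time, its mouse values were 0.38 to 0.65 with the mouse in channel 1, and 0.04, -0.05, -0.16 and 0.05 in W1 to W4 with W5 in channel 1. A fit of 1 orientation cannot take the offset out, so its mouse values still hold it. On this probe all 4 mice lay on the plus side in the first orientation and within 0.16 of W5 in the other.

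Odc1 probe 18232 also had an orientation offset, of 0.21 ± 0.05 (adjusted p = 0.0164). It was called in the full set, but its adjusted p was 0.0542, 0.0593 and 0.0563 when W1, W2 or W4 was left out. W3 was the outermost mouse on the plus side in both orientations, at 0.76 with the mouse in channel 1 and 0.47 with W5 in channel 1. W2 was at -0.02 and -0.55 in these fits, W4 at 0.03 and -0.38, and W1 at 0.42 and 0.00. W2 and W4 thus lay close to W5 in the first orientation and on the minus side in the other, with the offset still in these values.

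Hsd11b1 probe 6389 had an offset of 0.00 ± 0.04 and was not called (adjusted p = 0.989). Its mouse values were 0.50, 0.65, 0.25 and 0.24 in W1 to W4 with the mouse in channel 1, and 0.43, 0.76, 0.12 and 0.32 with W5 in channel 1, on the plus side in every case. Before the sign was turned, 7 of 8 arrays with the mouse in channel 1 lay above 0 and 0 of 8 arrays with W5 in channel 1 did. Cndp2 probe 11582 (0.02 ± 0.04, adjusted p = 0.749) and the probe listed with Odc1 and Gm7993 (0.08 ± 0.05, adjusted p = 0.273) were not called either. A p that misses the threshold does not show that no offset is there.

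**Figure D3:**
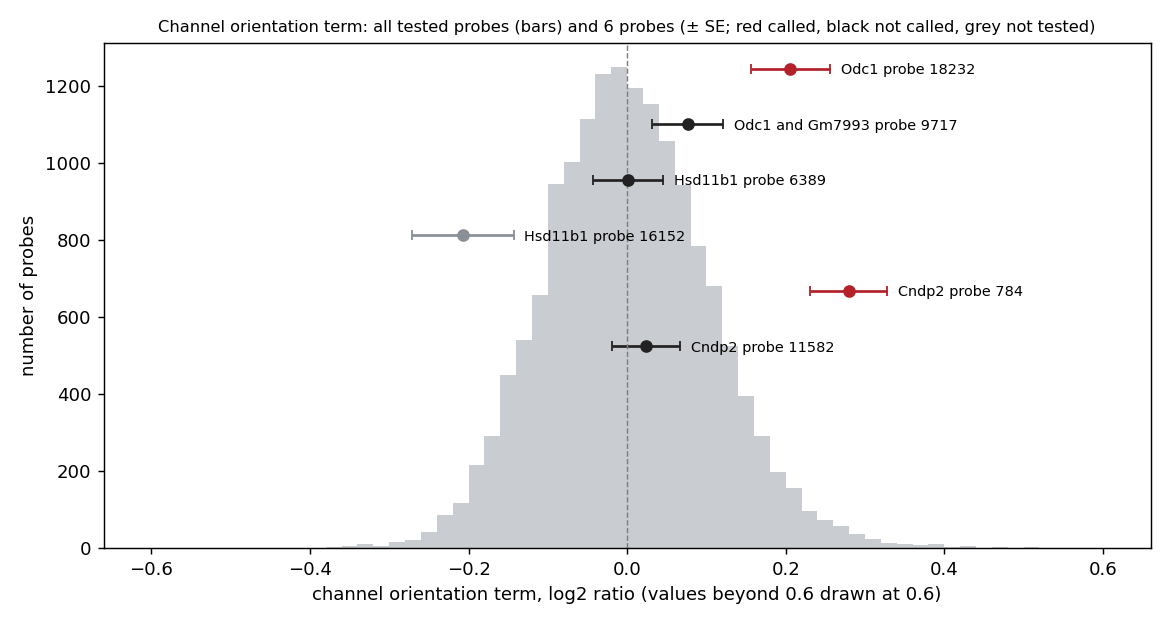
Grey bars count the tested probes by their channel orientation term, in log2 ratio on the x axis, with the number of probes on the y axis. Points mark the 6 probes with their SE, at heights chosen only for legibility. Cndp2 probe 784 at 0.28 and Odc1 probe 18232 at 0.21 were called, and Hsd11b1 probe 6389 sat at 0.00.

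The other genes of the same pathways were read from lists, with 1 probe per gene, in the test of whether any of the 5 kidneys differ (limma's moderated F test, Benjamini-Hochberg adjusted over all probes). Over all named genes outside the set, 333 of 8002 (4.16%) were called and the median range was 0.23. An unadjusted p under 0.05 in this test was found for 1457 of the 8002. Among androgen responsive kidney genes, 3 of 14 were called, with a median range of 0.32, and 9 of 14 had an unadjusted p under 0.05. Cyp2d9, a cytochrome P450 gene of male mice, was at -0.76 ± 0.08 in W1 and -0.69 ± 0.08 in W4, while W2 was at -0.01 and W3 at -0.32 (adjusted p = 1.46e-06). Slc22a7, an organic anion transporter, was at -0.53 in W2 and -0.50 in W4, with W1 at -0.05 and W3 at 0.02 (adjusted p = 7.26e-05). Bhmt, betaine-homocysteine methyltransferase, had a range of 0.40 (adjusted p = 0.0416) and was no longer called in 23 of 29 alternatives.

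Kap, the kidney androgen-regulated protein gene, was not called, with -0.11, -0.25, -0.22 and -0.23 in W1 to W4 (adjusted p = 0.0728). The uncalled Nudt19 and Adh1 had ranges of 0.32 each. Among female-biased kidney genes, 3 of 5 were called (60%, beside 4.16% over all named genes), with a median range of 1.15. Cyp4a14, a fatty acid omega-hydroxylase, had a range of 1.63, the aldehyde dehydrogenase gene Aldh1a7 one of 1.72, and Mep1b, a subunit of meprin, one of 0.31. Mep1b lost its call in 14 of 29 settings.

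In polyamine metabolism, 1 of 15 other genes was called, a share of 6.67% beside 4.16% over all named genes. Mat2b, the regulatory subunit of methionine adenosyltransferase, lay at 0.37, 0.36, -0.12 and 0.06 in W1 to W4 (adjusted p = 0.00988). The spermidine synthase gene Srm and the spermine synthase gene Sms had ranges of 0.06 and 0.19 (adjusted p = 0.992 and 0.478). Oaz1, the antizyme that sends ornithine decarboxylase to the proteasome, had a range of 0.17 (adjusted p = 0.542). Sat1, which acetylates spermidine and spermine, lay at 0.25, 0.27, 0.02 and 0.28 in W1 to W4 (adjusted p = 0.0908). In W3, where Odc1 was at 0.62, Srm was at 0.03, Sms at -0.03 and Oaz1 at -0.04. Smox and Oaz3 of the same list were at 0.30 ± 0.08 and 0.38 ± 0.16 in W3 and were not called (adjusted p = 0.162 and 0.525). The median of the 15 other genes in W3 was 0.03. The median range of the list was 0.19, against 0.23 over all named genes.

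Around Hsd11b1, 6 of 15 other genes of glucocorticoid activation and response were called (40%, beside 4.16% over all named genes). The median range of the 15 genes was 0.43. The glucocorticoid receptor gene Nr3c1 lay on the plus side in all mice, at 0.34, 0.38, 0.17 and 0.47 in W1 to W4 (adjusted p = 0.000788). The receptor's co-chaperone gene Fkbp5 lay at -0.31, -0.39, 0.21 and -0.12 (adjusted p = 0.00188), and Fkbp4 lay at -0.31, -0.09, 0.04 and -0.30 (adjusted p = 0.0132). Cdkn1a, a cyclin-dependent kinase inhibitor, was at -0.53, -0.45, 0.04 and -0.26 (adjusted p = 0.0015). Errfi1, a feedback inhibitor of the EGF receptor, lay at -0.17, -0.43, -0.58 and -0.36 (adjusted p = 0.000237). The metallothionein gene Mt2 lay at -0.25, -0.41, -0.35 and -0.44 (adjusted p = 0.0188). The 6 called genes thus had no common order of kidneys, as W3 lay across W5 from the remaining mice for Fkbp5, Fkbp4 and Cdkn1a, and on their side as the outermost kidney for Errfi1. Hsd11b2, the type 2 enzyme that inactivates glucocorticoid in the distal nephron, was not called (range 0.43, adjusted p = 0.124).

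**Figure D4:**
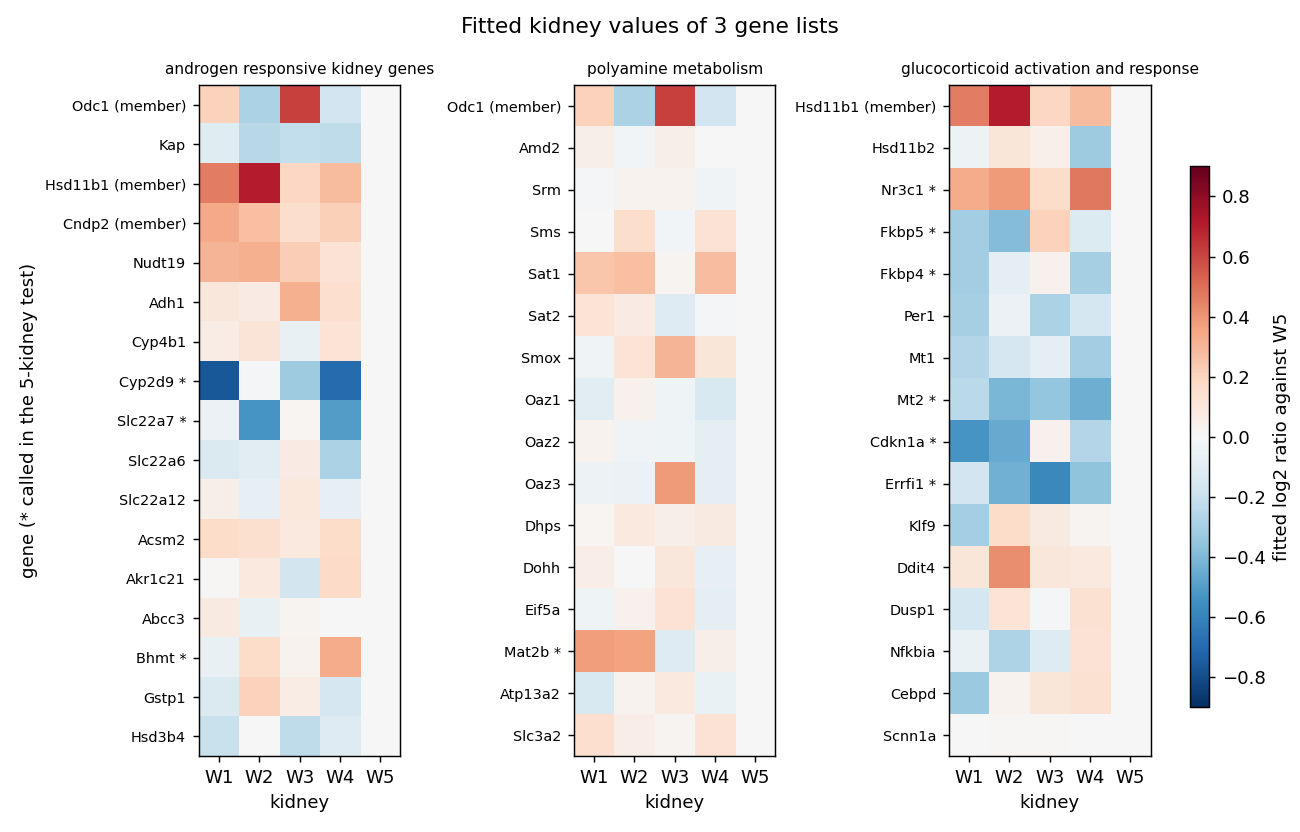
Colours give the fitted log2 ratio against W5 of each gene (rows) in each kidney (columns) for 3 lists, with stars on called genes other than Odc1, Hsd11b1 and Cndp2. In the polyamine list Odc1 has the strongest colour, at 0.62 in W3, and in the glucocorticoid list Hsd11b1 has, at 0.71 in W2.

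Among steroid hormone enzymes and receptors, 3 of 19 were called. Hsd3b2, a 3beta-hydroxysteroid dehydrogenase, lay at 0.87, 0.80, 0.09 and 0.83 in W1 to W4 (adjusted p = 2.36e-09), and Hsd3b3 had a range of 0.29. The Hsd3b genes are near-identical copies in part, and their 2 probes are uncertain for that reason. Rdh16f2, a retinol dehydrogenase family member, had a range of 1.1 on the minus side. In peptide breakdown and dipeptide transport, 3 of 14 were called. The aminoacylase gene Acy1 lay at -0.08, -0.99, 0.00 and -0.53 in W1 to W4 (adjusted p = 1.99e-06). The dipeptidase gene Dpep1, which also acts on Cys-Gly, lay at 0.17, 0.36, 0.14 and 0.47 (adjusted p = 0.00589). The remaining call was Mep1b. The peptide transporter gene Slc15a2 was not called (range 0.15, adjusted p = 0.442). Over these 6 lists together, 18 of 79 genes outside the set were called (22.8%), beside 4.16% over all named genes. The pathway lists and the marker lists below were chosen with earlier results of these data known. Their shares are therefore no result about these pathways or cell types.

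The genes closest to each member were taken among 182 called genes with a range of at least 0.5, by Pearson r over the 5 kidneys. This is a description over kidneys that share W5. The 5 highest of 182 r values over 5 kidneys are high in part through the choice itself. The r over arrays comes from the same arrays and is no separate support. For Odc1 these were Gclc, Ces2a, Cpn1, Lpl and Slc22a7, with r of 0.93, 0.83, 0.82, 0.81 and 0.80, and r over the 16 arrays of 0.71, 0.78, 0.85, 0.57 and 0.75. Gclc, which encodes the catalytic part of the enzyme that starts glutathione synthesis, lay at 0.11, -0.07, 0.90 and -0.15 in W1 to W4. Slc22a7 shares with Odc1 the minus side in W2 and W4 but not the distance in W3. For Hsd11b1 they were Car12, Gpam, Podxl, Gnpda1 and Ugt3a2, with r of 0.99, 0.95, 0.91, 0.91 and 0.90, and r over the 16 arrays of 0.43, 0.66, 0.67, 0.23 and 0.64. Car12, a carbonic anhydrase, lay at 0.73, 0.89, 0.29 and 0.41 in W1 to W4, and Gpam, the mitochondrial glycerol-3-phosphate acyltransferase, at 0.45, 0.51, 0.10 and 0.30. For Cndp2, on probe 784, they were Sec23b, Slco1a6, Shmt1, Gnpda1 and Slc17a3, with r of 0.912 to 0.995 over the kidneys and 0.191 to 0.457 over the arrays.

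Marker genes of several cell types, the proximal tubule among them, also differed among these kidneys. In bulk tissue fewer cells of a type and less RNA per cell cannot be told apart. Proximal tubule S3 markers had 5 of 9 genes called (Slc22a7, Slc5a1, Slc17a3, Slco1a6 and Gramd1b) and medians of -0.08, -0.13, -0.02 and -0.23 in W1 to W4. Of these, Slc22a7 is among the genes closest to Odc1, and Slco1a6 and Slc17a3 are among those closest to Cndp2. The called S3 markers did not share a side. Slco1a6 and Slc17a3 lay on the plus side in all 4 mice, and Slc5a1 and Gramd1b on the minus side in all 4. Markers of segments S1 and S2 had 4 of 11 called (Slc13a3, Slc7a7, Aqp1 and Ass1) and medians of 0.08, 0.16, -0.02 and 0.09. Endothelial and glomerular markers had 5 of 8 called (Emcn, Egfl7, Esm1, Ehd3 and Podxl) and medians of 0.05, 0.43, -0.06 and 0.27. Podxl is also among the genes closest to Hsd11b1. Adipose markers had 4 of 6 called (Fabp4, Cidec, Car3 and Lpl) and medians of -0.08, -0.35, -0.21 and -0.23. Of these called genes, only Lpl is among the genes closest to Odc1. In W3, where Odc1 was at 0.62, Lpl was at 0.10 and Fabp4, Cidec and Car3 were at -0.64, -0.68 and -0.35, each on the 1 probe taken. Distal tubule and collecting duct markers had 3 of 8 called, leukocyte and blood markers 1 of 6 and adrenal markers 0 of 4. An unadjusted p under 0.05 in limma's test was found for 1 of the 4 adrenal genes, beside 1457 of 8002 named genes outside the set. The called distal genes were Aqp2, Slc26a4 and Foxi1, and the called leukocyte gene was H2-Aa. These counts depend on the probe taken for a gene. Lyz2 and Flt1, counted as not called, each had another probe called in the same F test (adjusted p = 0.0117 and 0.00393). The other probe of Ehd3, counted as called, was not called (adjusted p = 0.624). Lpl and Car3 had further probes that were also called, with ranges of 0.65 and 0.77 for Lpl and 0.87 for Car3. The medians over all named genes lay between -0.01 and 0.01, and 4.16% of these genes were called. The part of these cell types in the values of Odc1, Hsd11b1 and Cndp2 was not tested.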

How the data were processed

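The authors deposited log2 ratios of the 2 channels of each array. Per the labels, slides were scanned with a GenePix 4000A, read with GenePix Pro 3.0, and mean intensities with background subtracted were scaled to a median ratio of 1. The base of the logs was read from the values. No source used here gives the numerator, each channel's dye or the reason for empty cells. Arrays had values for 80.2% to 91.1% of 20205 probes, with medians of -0.02 to 0.00; the number of arrays limits the precision. Before turning, arrays of the same orientation correlated at 0.01 to 0.39, and arrays of opposite orientation at -0.17 to 0.14. Residual SDs per array were 0.15 to 0.23.

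Probes measured on 3 or more arrays in each mouse were fitted with limma (3.58.1, R 4.3.3), using lmFit and eBayes with 4 mouse coefficients and a channel orientation term, and p-values were Benjamini-Hochberg adjusted over all 15715 probes. The script was tested on simulated data. A gene took its probe with most arrays, then the first identifier. Of the probes, 11723 carried a single symbol, 806 more than 1, and the other 7676 were left without a name. By gene ID, 11590 with a single symbol matched RefSeq's gene table of GRCm38.p6, and 0 symbols changed.

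The genes and lists were chosen with earlier results of these data known. The text names every member probe, every called gene of the 6 pathway and 7 marker lists, set partners of the members where measured, and for each member the 5 genes of most similar profile. Of the partners, Srm, Sms, Sat1, Oaz1, Hsd11b2, Nr3c1, Slc15a2 and Kap were tested, and the others were not analysed here. Alternatives left out arrays or mice, the orientation term or 1 orientation, and changed weights, scaling and filter.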

Additional observations from a re-analysis of the deposited data

Results flagged for a closer look

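Array 4 of W3 stood apart from the other 3 arrays of that mouse on Cndp2 probe 11582. With the orientation term removed its log2 ratio was 0.057, and its gap to the nearest of the others took up more of the mouse's range than the 95% critical value for 4 arrays allows. This was the only value flagged among 27 groups of 4 values tested over the 6 probes, and chance gives such a gap in about 5% of groups.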

How the results depend on the processing

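The range moved by less than the residual SD between arrays in 28 of 29 alternatives for each of the probes 18232, 6389 and 784. This count says little of stability, since a range rests only on its outermost kidneys. Leaving out an array of W1 left it at 0.90 on probe 18232 and 0.71 on probe 6389, as with all arrays. On probe 784 the SD was 0.19, against a range of 0.34. The count of the 5-kidney test was 629, and it was 335 to 671 when an array or a mouse was left out, 846 with array weights, 403 with no orientation term, 181 with the mouse in channel 1 only and 115 with it in channel 2 only; the last settings have fewer arrays. The orientation test called 1959 probes, 2166 with array weights, and 658 to 1915 when arrays or mice were left out. The pathway count of 18 was 13 to 19 with arrays or mice left out, 23 with array weights, 10 with the mouse in channel 1 only and 8 in channel 2 only. Leaving out an array or mouse gave ranges of 0.49 to 1.02 for Odc1 probe 18232, 0.46 to 0.78 for Hsd11b1 probe 6389, 0.27 to 0.40 for Cndp2 probe 784 and 0.16 to 0.46 for Cndp2 probe 11582, and with the mouse in channel 1 only Cndp2 probe 784 reached 0.65. Signs turned with the mouse in channel 2 only on Cndp2 probe 784, for W2 at -0.053 and W3 at -0.16. They turned with the mouse in channel 1 only for W4 on Odc1 probe 18232, at 0.027, for W2 on Cndp2 probe 11582, at 0.058, and for W2 on the probe listed with Odc1 and Gm7993, at 0.026. W2 on probe 11582, at -0.017 in all arrays, also turned without its array 1 or 4, at 0.0014 and 0.013. Values of 1 orientation still hold the probe's orientation offset. It was 0.28 on Cndp2 probe 784, 0.21 on Odc1 probe 18232, 0.02 on Cndp2 probe 11582 and 0.08 on the probe listed with Odc1 and Gm7993. The cause of the turned signs was not tested. On Cndp2 probe 784, W4 was at 0.13 without its array 2, against 0.22 with it. With the array number as a replicate block, the 5-kidney count was 590 and the pathway count 17. Same-numbered arrays of different mice had residual correlations of -0.25 to 0.13, with a median of -0.07, and over 0.1 in 1 of 24 pairs. Pairs of different mice with other numbers but the same orientation had -0.28 to 0.01, with a median of -0.13. Whether the numbers pair the arrays was not tested. Of the 18 called pathway genes, 6 were called in every alternative in which they were tested.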
